A study of Mus musculus with 15 samples.

Results

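The receptors for the cytokines BAFF and APRIL are encoded by 3 genes of the tumour necrosis factor receptor superfamily: Tnfrsf13b (TACI), Tnfrsf13c (the BAFF receptor) and Tnfrsf17 (BCMA). They were taken by symbol from the 31350 genes measured on exon and junction arrays of mouse splenic B cells. Of the 580167 array rows annotated to a single gene, 46 belong to these 3: 30 rows for Tnfrsf13b (20 exon regions, whose IDs begin with PSR, and 10 exon junctions, JUC), 10 for Tnfrsf13c (6 and 4) and 6 for Tnfrsf17 (4 and 2). The samples were ELL2 cko cells after 72 h with LPS (ELL2 cko +LPS, 3 arrays), ELL2 cko cells without LPS (ELL2 cko -LPS, 4 arrays), wild-type cells after 72 h with LPS (WT +LPS, 4 arrays) and wild-type cells without LPS (WT -LPS, 4 arrays). All mice were C57BL/6, and B cells had been isolated on magnetic columns from each mouse. ELL2 cko is a conditional knockout of Ell2, a transcription elongation factor. The sources used here do not give the promoter or cell type that drives the deletion, nor the deleted part of the gene. Cells without LPS were processed at once, so each change with LPS also covers the culture time.

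BAFF and APRIL are made mainly by myeloid and stromal cells and keep B cells and plasma cells alive. The BAFF receptor binds BAFF only, is carried by mature resting B cells and drives their survival through the non-canonical NF-kB pathway. TACI binds both cytokines, is raised on activated, marginal zone and innate-like B cells, and mediates class switching and plasma cell differentiation as well as restraint of B cell numbers. BCMA also binds both, with a preference for APRIL, and is characteristic of antibody-secreting cells. LPS, the ligand of Toll-like receptor 4, makes mouse B cells divide and turn into antibody-secreting plasmablasts.

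In mouse build GRCm38.p6, RefSeq places Tnfrsf13b on chromosome 11 (61126283 to 61153170), Tnfrsf13c on chromosome 15 (82221742 to 82224380) and Tnfrsf17 on chromosome 16 (11313232 to 11320074). The promoter windows below (250 bases before to 50 after 1 RefSeq transcript start of each gene, 5′ to 3′) are shown because the first and the last belong to the receptors that rose with LPS in WT cells and the middle one to the receptor that did not pass the test. Capitals mark matches to the motifs searched on both strands.
Tnfrsf13b, chr11:61126505-61126804, plus strand: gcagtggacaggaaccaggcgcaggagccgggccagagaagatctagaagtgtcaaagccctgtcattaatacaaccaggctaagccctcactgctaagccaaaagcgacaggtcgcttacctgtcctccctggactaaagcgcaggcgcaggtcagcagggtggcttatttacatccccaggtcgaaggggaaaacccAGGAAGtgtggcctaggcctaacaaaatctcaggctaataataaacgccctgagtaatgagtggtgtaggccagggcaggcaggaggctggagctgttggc
Tnfrsf13c, chr15:82224331-82224630, minus strand: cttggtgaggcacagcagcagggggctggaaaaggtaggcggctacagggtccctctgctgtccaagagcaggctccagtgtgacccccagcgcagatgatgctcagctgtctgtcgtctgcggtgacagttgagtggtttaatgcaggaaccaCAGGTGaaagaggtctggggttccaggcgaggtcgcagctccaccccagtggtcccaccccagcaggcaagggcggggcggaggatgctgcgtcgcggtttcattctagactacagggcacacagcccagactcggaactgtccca
Tnfrsf17, chr16:11313559-11313858, plus strand: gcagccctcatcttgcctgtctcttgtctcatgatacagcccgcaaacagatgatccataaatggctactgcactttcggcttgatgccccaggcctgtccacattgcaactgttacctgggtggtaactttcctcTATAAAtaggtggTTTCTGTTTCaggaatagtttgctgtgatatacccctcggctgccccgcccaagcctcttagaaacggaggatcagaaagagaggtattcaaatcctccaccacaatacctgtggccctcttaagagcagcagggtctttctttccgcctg
The Tnfrsf13b window holds 1 match to AGGAAG, the core bound by ETS factors, starting at position -51 from the transcript start, and 35.4% of all 32851 windows of this length hold that motif. The Tnfrsf13c window holds 1 match to CAGGTG, an E box, found in 20.2% of windows. The Tnfrsf17 window holds 1 match to TATAAA (13.6% of windows) and, on the other strand, 1 match to the interferon response element (3.44% of windows), and the matches do not overlap. None of the 3 windows holds a match to the NF-kB consensus, which 4.51% of windows do. A match is a stretch of letters and not a measured binding site.

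Values are log2 SST RMA values, in which a signal space transformation (SST) stretches differences, so folds are those of that scale, and the level of one gene was not set against that of another. A gene value is the median over its exon regions. Changes are ± SE from a limma model over all 15 arrays, with Benjamini-Hochberg adjustment of p over the whole table of genes or of rows, and calls at an adjusted p under 0.05. Ell2 itself had 14.15, 14.16 and 14.14 in ELL2 cko +LPS against 16.86, 15.90, 16.56 and 15.73 in WT +LPS, a change of -2.11 ± 0.29 (limma, adjusted p = 0.000903), whereas without LPS the change of -0.51 ± 0.27 was not called (adjusted p = 0.62). Which Ell2 rows lie in the deleted part is not known here. The 7 B cell markers measured of 8 listed averaged 13.85 to 14.00 in ELL2 cko +LPS, 13.66 to 15.30 in ELL2 cko -LPS, 11.09 to 13.59 in WT +LPS and 15.14 to 15.42 in WT -LPS. In ELL2 cko -LPS 1 and 2 the mean of 12 T cell markers was 11.23 and 10.77, and in ELL2 cko +LPS 2 and 3 it was 6.76 and 7.05, against 4.93 to 5.23 in the other 11 arrays. Neutrophil and monocyte markers also reached means of 11.68 and 9.45 in ELL2 cko -LPS, against at most 4.73 and 5.73 in WT -LPS. Results on ELL2 cko are therefore also given without those 4 arrays, which leaves 1 ELL2 cko +LPS array that is assumed to vary like the other groups, and 2 ELL2 cko -LPS arrays.

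The ligand genes were dim and neither passed the limma test in any comparison, also at an unadjusted p under 0.05. Tnfsf13b, which encodes BAFF, ranged from 3.99 to 4.54 in ELL2 cko +LPS, 4.12 to 5.32 in ELL2 cko -LPS, 4.28 to 4.53 in WT +LPS and 3.76 to 4.50 in WT -LPS. Tnfsf13, which encodes APRIL, lay between 3.34 and 4.12 in all 15 arrays. For scale, 95% of the background control rows had values up to 5.06. The changes with LPS in WT were 0.19 ± 0.24 for Tnfsf13b and -0.11 ± 0.15 for Tnfsf13, with 95% intervals of -0.33 to 0.70 and -0.43 to 0.21.

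Tnfrsf13b rose with LPS in both genotypes. Its values were 11.78, 10.92 and 11.35 in ELL2 cko +LPS, against 10.04, 9.69, 10.35 and 10.56 in ELL2 cko -LPS. In WT it had 12.87, 12.10, 12.91 and 12.84 with LPS, against 10.24, 10.51, 10.50 and 10.54 without. In each genotype every LPS array lay above every array without LPS, a separation seen in either direction for 19.5% of all genes in ELL2 cko and 28.0% in WT. The change was 1.19 ± 0.25 in ELL2 cko (95% interval 0.66 to 1.72, adjusted p = 0.00674 by limma) and 2.23 ± 0.23 in WT (adjusted p = 5.49e-06), folds of 2.28 and 4.70 on this scale. Over all genes, 6.36% were called higher with LPS in ELL2 cko and 13.9% in WT. Without the 4 arrays that hold RNA of other cells, the change in ELL2 cko was 1.32 (adjusted p = 0.041). In bulk RNA, more or fewer cells that express a gene and more or less RNA per cell cannot be told apart.

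With LPS, Tnfrsf13b was lower in ELL2 cko than in WT by the test over all 15 arrays. The group means were 11.35 ± 0.43 in ELL2 cko +LPS (SD, n = 3) and 12.68 ± 0.39 in WT +LPS (SD, n = 4), and the highest ELL2 cko array lay below the lowest WT array. The difference was -1.33 ± 0.25 (adjusted p = 0.00633, limma), a fold of 0.397. Among all genes 3.3% were called lower in this comparison, and the groups did not overlap for 13.9%. The call rested on few arrays: the difference was -1.12 (adjusted p = 0.0505) without ELL2 cko +LPS 2, -0.91 (adjusted p = 0.286) without the 4 arrays, and the same size with an adjusted p of 0.0574 when only the groups compared were fitted. The mean of 6 markers of antibody-secreting cells moved with it, at 12.70 to 13.27 in ELL2 cko +LPS and 14.40 to 15.49 in WT +LPS, and its part in the result was not tested.

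Without LPS the genotypes were not told apart by Tnfrsf13b. Its mean was 10.16 ± 0.38 in ELL2 cko -LPS and 10.45 ± 0.14 in WT -LPS (SD, n = 4 each), a difference of -0.29 ± 0.23 (95% interval -0.78 to 0.20), and 0.0128% of all genes were called in this comparison. The 2 lowest ELL2 cko arrays, 10.04 and 9.69, were those with RNA of other cells, and without them the difference was 0.0. The LPS response of ELL2 cko minus that of WT was -1.04 ± 0.34, which did not pass the limma test over all genes (adjusted p = 0.164, where 1.37% of genes were called). That value crossed the threshold (-1.24, adjusted p = 0.0409 by limma) once WT +LPS 2, the lowest of its group, was left out. It ranged from -1.26 to -0.58 over the 23 alternatives run, and 22 of them left it not called. The comparisons share arrays: WT +LPS enters both the LPS change in WT and the difference between genotypes with LPS. In order of level, WT +LPS was highest, ELL2 cko +LPS next, then WT -LPS and ELL2 cko -LPS, and only the last 2 neighbours overlapped. ELL2 cko +LPS against WT -LPS was not tested.

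**Figure D1:**
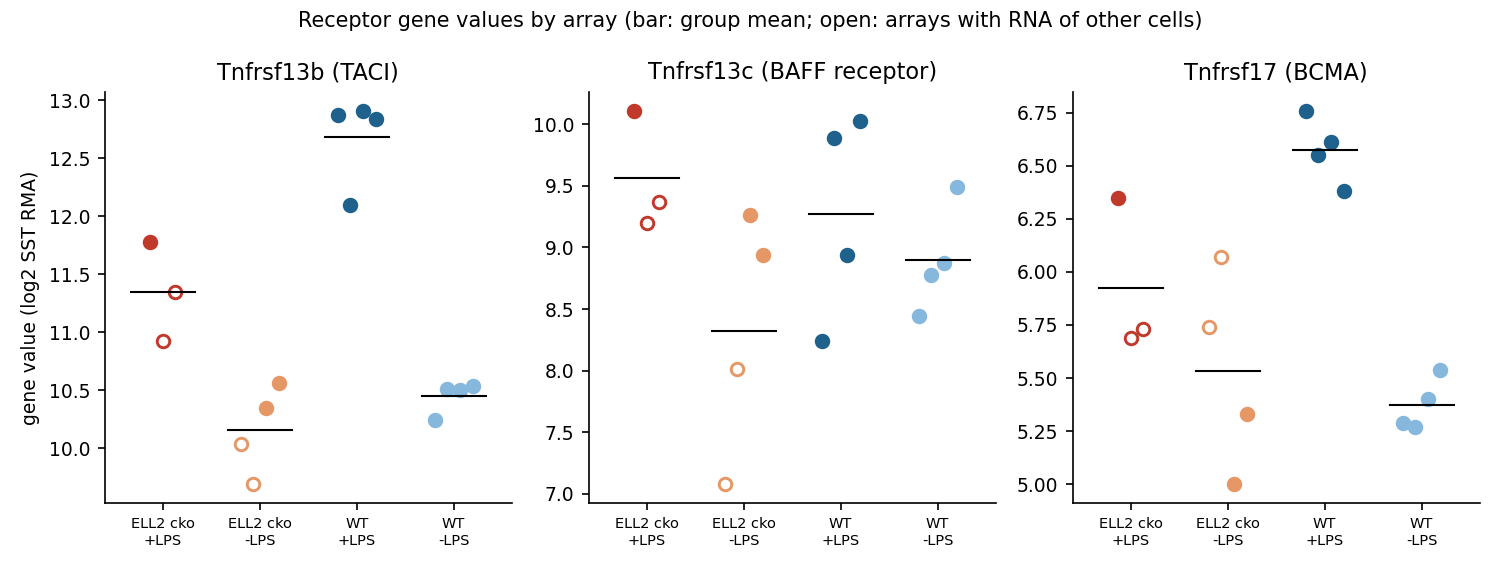
Gene values (log2 SST RMA, median of exon regions) of the 3 receptors, 1 point per array in 4 groups, with the group mean as a bar and open points for the 4 arrays with RNA of other cells. Tnfrsf13b of the 4 WT +LPS arrays (12.10 to 12.91) lies above all other arrays, Tnfrsf13c overlaps between groups, and Tnfrsf17 of WT +LPS (6.38 to 6.76) lies above the other groups.

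The rows of Tnfrsf13b did not move as one. With LPS in WT, 20 of 30 rows rose and 0 fell (21.1% of all rows were called in either direction), with changes from -0.65 to 5.0 and a median of 1.46. In ELL2 cko, 17 of 30 rose (2.95% of all rows), with changes from -0.58 to 3.18. The steepest row, PSR1100006193.mm.1, had 11.70, 10.66 and 11.25 in ELL2 cko +LPS against 8.30, 7.64, 8.05 and 8.11 in ELL2 cko -LPS. In WT the same row had 13.96, 12.41, 13.16 and 13.33 with LPS against 8.44, 7.58, 8.47 and 8.35 without, a change of 5.0 ± 0.32 (adjusted p = 2.24e-07, limma over rows). By contrast PSR1100006188.mm.1 had 13.01, 13.15, 13.11 and 12.78 in WT +LPS against 13.63, 13.56, 14.00 and 13.45 in WT -LPS, a change of -0.65 ± 0.27 that did not pass the test (adjusted p = 0.108). Within 1 gene, some exon regions thus had changes far above the gene value of 2.23 and others had changes near 0.

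The splicing index, a row's value minus its gene value in the same array, put numbers on this spread. With LPS in WT the index of 8 Tnfrsf13b rows rose and that of 11 fell, 19 of 30 rows, against 10.8% of all rows called in either direction. The largest rise was 2.77 ± 0.26 for PSR1100006193.mm.1 (adjusted p = 2.35e-05) and the largest fall -2.88 ± 0.25 for PSR1100006188.mm.1 (adjusted p = 1.25e-05). In ELL2 cko 7 rose and 2 fell (1.29% of all rows), and the same 2 rows changed by 1.99 ± 0.28 and -1.76 ± 0.27. The index called 0 rows in ELL2 cko without the 4 arrays, with 1 LPS array left, and those 2 rows were then at 2.30 and -1.71. By the index 0 of 30 Tnfrsf13b rows were called between genotypes, where 0.225% of all rows were with LPS and 0.0% without (limma at an adjusted p under 0.05, and 13 with LPS and 1 without at an unadjusted p under 0.05).

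The 8 rows whose index rose in WT were then followed as a description, since their own values chose them. They are 3 junctions (JUC1100003215.mm.1, JUC1100003216.mm.1 and JUC1100003219.mm.1) and 5 exon regions (PSR1100006190.mm.1, PSR1100006191.mm.1, PSR1100006193.mm.1, PSR1100006194.mm.1 and PSR1100006196.mm.1), whose row values changed by 1.73 to 3.18 with LPS in ELL2 cko and by 3.40 to 5.0 in WT. The 11 rows whose index fell changed by -0.58 to 1.62 in ELL2 cko and -0.65 to 1.22 in WT, and the remaining 11 by 0.30 to 2.38 and 1.10 to 2.87. In WT -LPS the first set averaged 5.64 to 11.19 per row and the second 3.43 to 15.35. The second set includes 2 junctions (JUC1100003217.mm.1 and JUC1100003222.mm.1) that stayed at or under the level of the background rows, 5.06, in the mean of every group, so the size of their index fall is not interpretable. Row positions within the gene were not used here, and the rows are not assigned to exons or isoforms.

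**Figure D2:**
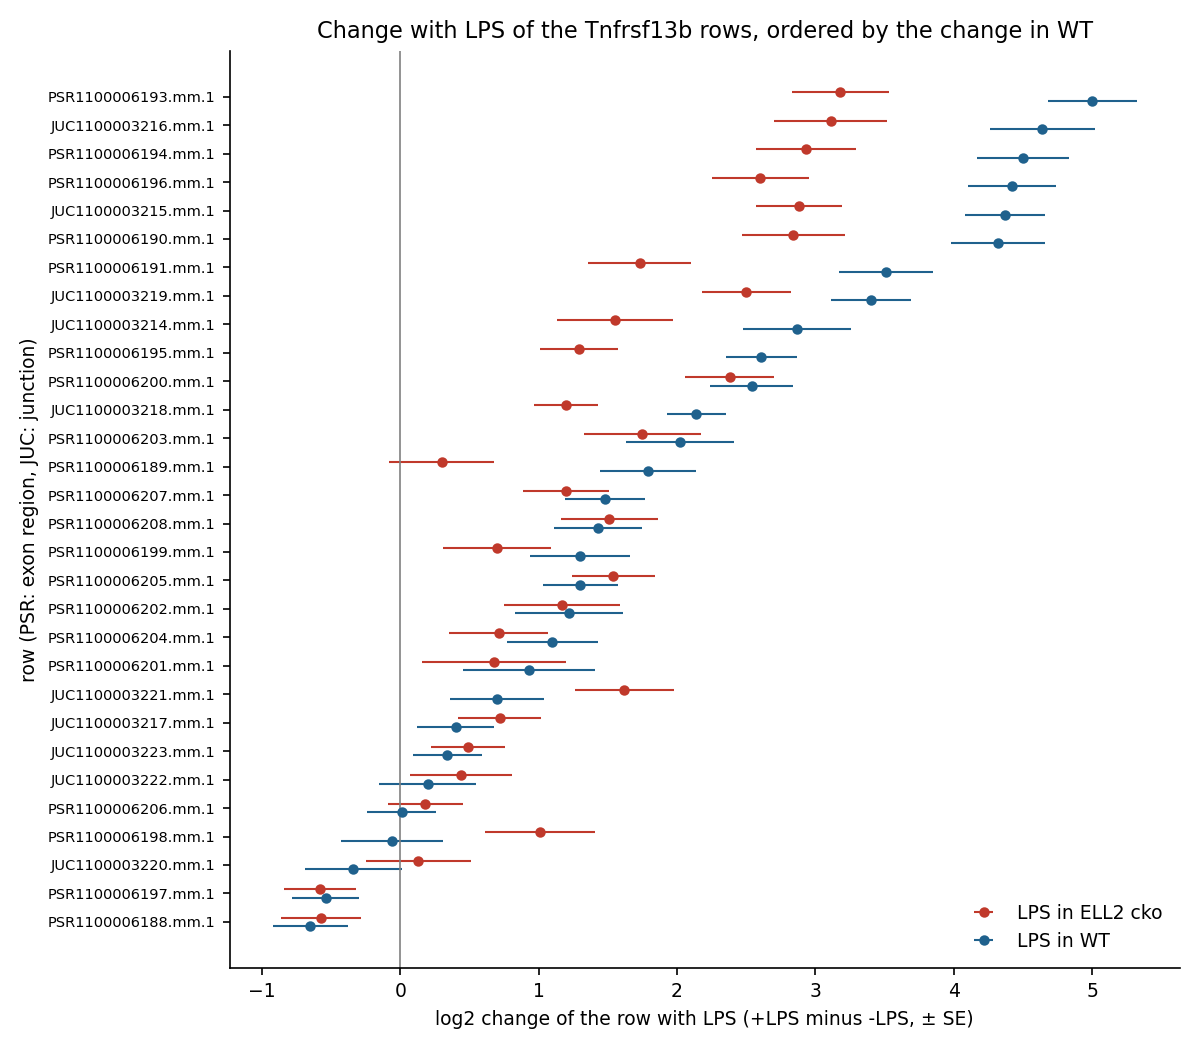
Change of each of the 30 Tnfrsf13b rows with LPS (log2, +LPS minus -LPS, ± SE) in ELL2 cko and in WT, ordered by the change in WT. The rows run from -0.65 to 5.0 in WT and from -0.58 to 3.18 in ELL2 cko, and the genotypes lie apart mainly at the steep rows in the upper part. The order rests on the same WT arrays, so this distance is a description.

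The genotype difference with LPS was largest at those steep rows, which the same WT +LPS arrays had chosen. Of the 30 Tnfrsf13b rows 9 were lower in ELL2 cko +LPS than in WT +LPS and 0 higher, where 1.83% of all rows were called lower. These 9 comprised 7 of the 8 rows whose index rose with LPS, 2 of the 11 whose index was not called and 0 of the 11 whose index fell. The largest difference was -2.56 ± 0.37 for PSR1100006191.mm.1 (adjusted p = 0.00428), which was -1.42 (adjusted p = 0.284) without the 4 arrays. The median difference was -1.81 in the first set, -0.98 in the set not called and -0.12 in the set whose index fell. The count over all 46 receptor rows was 11, and it was 2 without ELL2 cko +LPS 2, 3 without ELL2 cko +LPS 3, 6 without WT +LPS 1 or 3, and 0 without the 4 arrays. Without LPS limma called 0 of 30 rows, 2 at an unadjusted p under 0.05, and 0.0% of all rows.

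Tnfrsf17 rose with LPS in WT cells. Its gene value was 6.35, 5.69 and 5.73 in ELL2 cko +LPS against 5.74, 6.07, 5.0 and 5.33 in ELL2 cko -LPS, groups that overlapped. In WT it was 6.76, 6.55, 6.61 and 6.38 with LPS against 5.29, 5.27, 5.40 and 5.54 without, groups that did not overlap, as for 28.0% of all genes. The change was 0.39 ± 0.22 in ELL2 cko, which was not called (95% interval -0.09 to 0.87, adjusted p = 0.333), and 1.20 ± 0.21 in WT (adjusted p = 0.000542, limma), a fold of 2.3. These levels are low: the brightest background row reached 6.58, and 2 of the 6 rows of the gene, JUC1600000480.mm.1 and PSR1600000947.mm.1, stayed at or under 5.06 in the mean of every group.

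The Tnfrsf17 values of ELL2 cko differed between the arrays with and without RNA of other cells. Among ELL2 cko -LPS arrays those 2 had 5.74 and 6.07 against 5.0 and 5.33 in the other 2, and among ELL2 cko +LPS arrays they had 5.69 and 5.73 against 6.35 in the remaining one. Without them the change with LPS in ELL2 cko was 1.18 (adjusted p = 0.0133), close in size to that in WT. The 3 ELL2 cko +LPS and 4 WT +LPS values did not overlap (6.35 against 6.38 at the closest), as for 13.9% of all genes. The genotype difference with LPS was -0.65 ± 0.22 over all arrays (adjusted p = 0.13, limma) and -0.23 without the 4 arrays. It was called when the mean of the exon regions was used (-0.95, adjusted p = 0.0155), when junctions were added (-1.41, adjusted p = 0.0113) and without ELL2 cko +LPS 1 (-0.87, adjusted p = 0.0417). Without LPS the difference was 0.16 ± 0.21 (adjusted p = 0.884, limma). The difference of the LPS responses was -0.81 ± 0.30 over all arrays (adjusted p = 0.248, limma) and -0.02 without the 4 arrays.

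A junction of Tnfrsf17 was above the background level of 5.06 in WT +LPS only. JUC1600000479.mm.1 had 3.77, 3.67 and 3.75 in ELL2 cko +LPS against 4.79, 4.87, 3.70 and 3.85 in ELL2 cko -LPS. In WT it had 6.16, 6.62, 7.19 and 6.14 with LPS against 3.97, 4.76, 3.35 and 4.54 without. All arrays of the other 3 groups lay under 5.06, so their values are not told apart from background. Of the 4 WT +LPS arrays, 2 exceeded the brightest background row (6.58). Of all rows, 6.97% lay lower in every ELL2 cko +LPS array than in any WT +LPS array. With values under 5.06 set to that level, the WT +LPS mean of 6.53 was 2.77-fold above ELL2 cko +LPS and WT -LPS. That mean lay under the brightest background row, so the fold is an estimate on this scale and not a lower bound. The limma calls on the values as deposited had adjusted p = 0.00353 between genotypes with LPS and 0.000235 with LPS in WT. The difference of LPS responses (adjusted p = 0.0459) was the only one called among the 46 receptor rows, where 0.121% of all rows were called lower, and its size is not given here because both ELL2 cko groups lay under the level.

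The genotype call of that junction was kept when each array was left out in turn (15 of 15), and the call on the difference of LPS responses in 3 of 15. Without the 4 arrays the genotype difference was not called (adjusted p = 0.247), and the 1 ELL2 cko +LPS array left was at 3.77, under the level. By the splicing index it was the 1 Tnfrsf17 row called between genotypes with LPS (0.111% of all rows were called lower), a call lost without ELL2 cko +LPS 2, without ELL2 cko +LPS 3 or without WT +LPS 3, and that index too rests on values under the level. The exon region PSR1600000948.mm.1 was the other Tnfrsf17 row called lower with LPS, at 6.72, 6.23 and 6.16 in ELL2 cko +LPS against 7.26, 7.28, 8.07 and 7.37 in WT +LPS, a difference of -1.12 ± 0.24 (adjusted p = 0.0272), or -0.77 (adjusted p = 0.473) without the 4 arrays. With LPS in ELL2 cko 0 of 6 rows were called by limma, also at an unadjusted p under 0.05, but without the 4 arrays PSR1600000949.mm.1 was called at 1.85 (adjusted p = 0.0447). In WT 4 of the 6 rows were called higher with LPS, where 21.1% of all rows were called in either direction. Of these 4, PSR1600000948.mm.1 rose by 1.52 ± 0.23 and PSR1600000949.mm.1 by 2.13 ± 0.45, while the junction and PSR1600000947.mm.1 lay under the background level in the mean of WT -LPS. In order of level the gene ran from WT +LPS through ELL2 cko +LPS and ELL2 cko -LPS to WT -LPS, and the last 3 groups overlapped as neighbours.

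**Figure D3:**
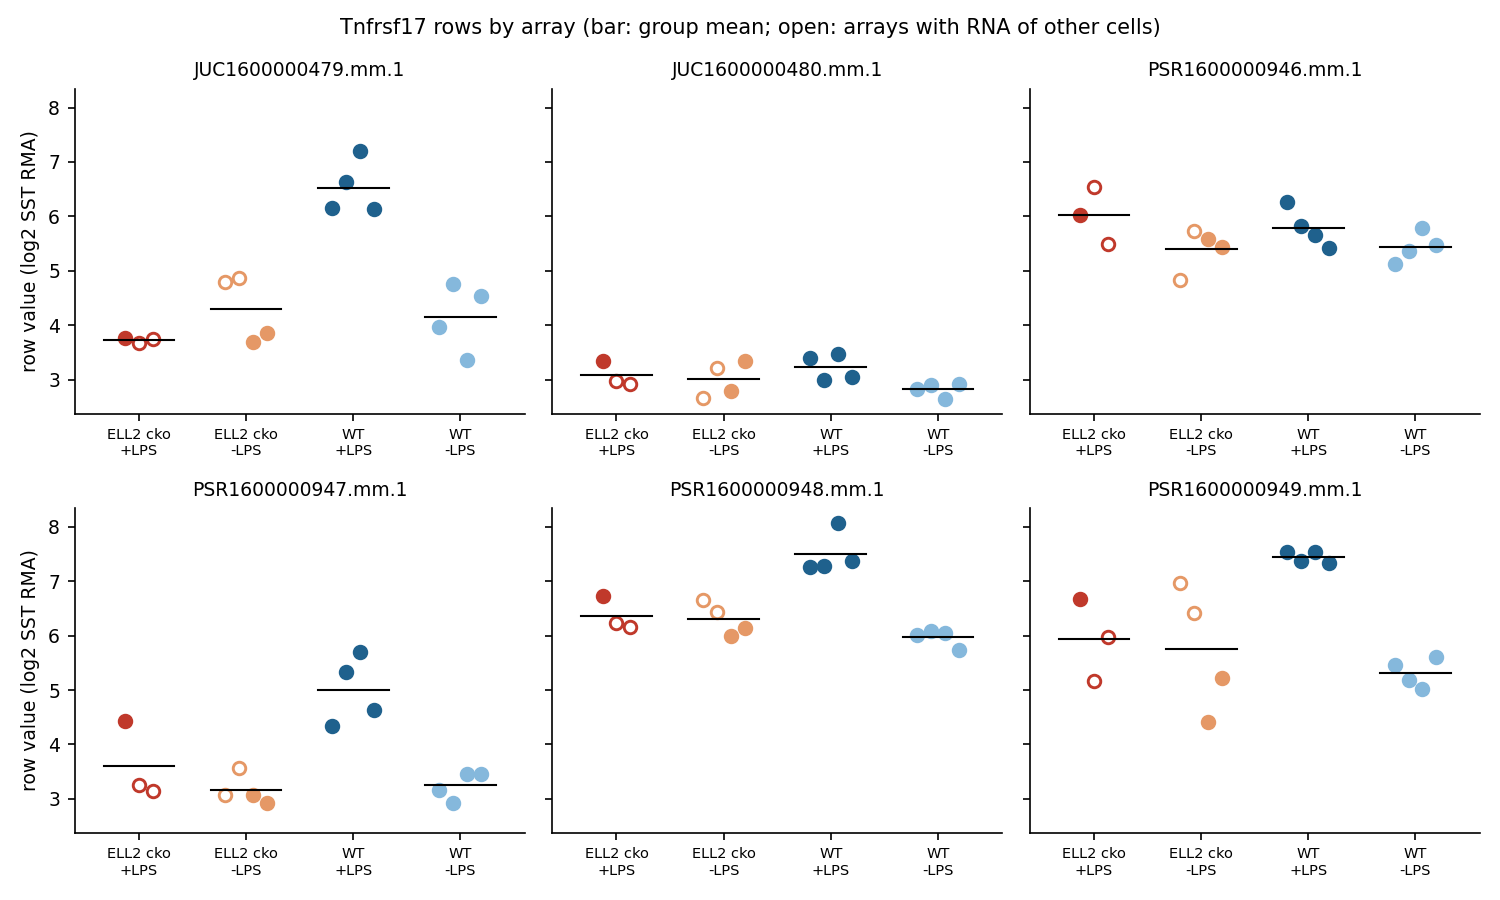
Values (log2 SST RMA) of the 6 Tnfrsf17 rows, 1 point per array in 4 groups, with the group mean as a bar and open points for arrays with RNA of other cells. Junction JUC1600000479.mm.1 is at 3.67 to 3.77 in ELL2 cko +LPS and 6.14 to 7.19 in WT +LPS, with all arrays outside WT +LPS under the background level of 5.06, while JUC1600000480.mm.1 is under it in all groups.

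**Figure D4:**
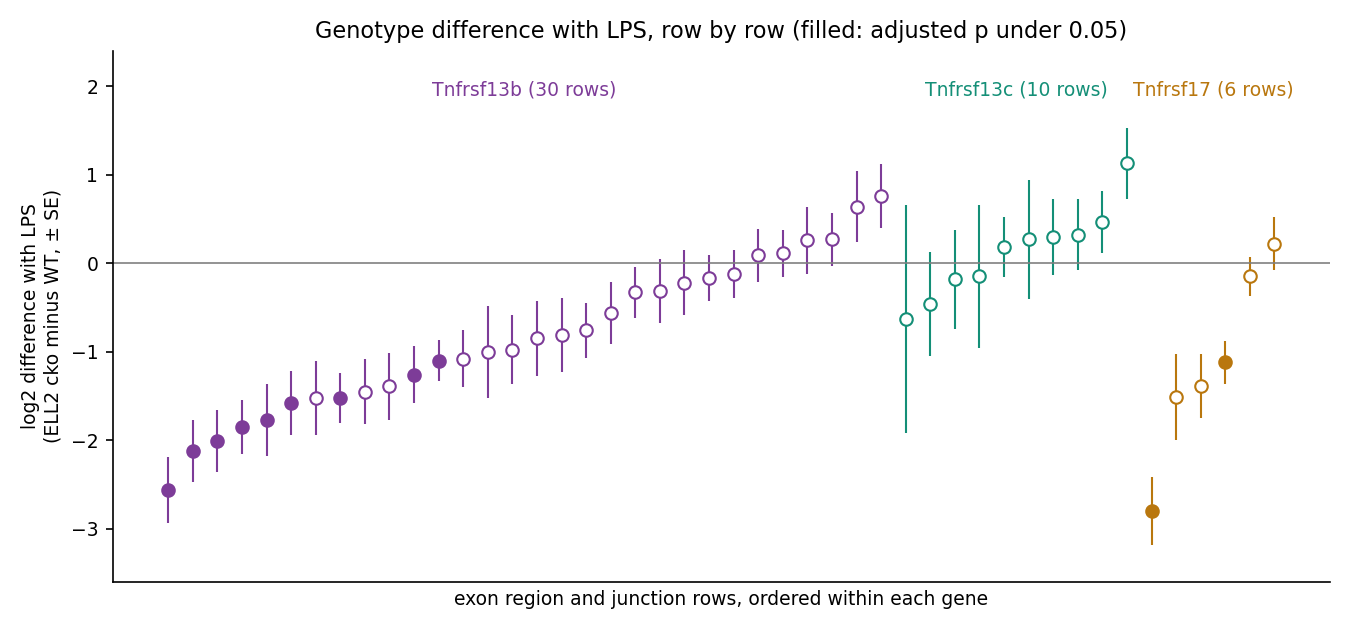
Genotype difference with LPS (log2, ELL2 cko minus WT, ± SE) of the 46 rows, ordered within each gene, with filled points for rows called. The 9 Tnfrsf13b and 2 Tnfrsf17 rows called all lie below 0, and no Tnfrsf13c row is called.

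Tnfrsf13c, the receptor of resting B cells, did not pass the test in any comparison. It had 10.11, 9.20 and 9.37 in ELL2 cko +LPS against 7.08, 8.01, 9.26 and 8.94 in ELL2 cko -LPS. In WT it had 8.24, 9.89, 8.94 and 10.03 with LPS against 8.44, 8.78, 8.87 and 9.49 without. The groups overlapped in each pair of conditions compared. The change with LPS was 1.24 ± 0.51 in ELL2 cko (95% interval 0.15 to 2.32, limma adjusted p = 0.153) and 0.38 ± 0.47 in WT (95% interval -0.63 to 1.38, adjusted p = 0.638). The ELL2 cko arrays without RNA of other cells had 10.11 with LPS, against 9.26 and 8.94 without LPS. The genotype difference was 0.29 ± 0.51 with LPS (95% interval -0.80 to 1.37) and -0.57 ± 0.47 without (95% interval -1.58 to 0.43), so differences above 1 on the log2 scale lie within these intervals.

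The spread of Tnfrsf13c within groups was wide, and marker levels varied in the same arrays. The 2 lowest values of all, 7.08 and 8.01, came from the ELL2 cko -LPS arrays with RNA of other cells, whose B cell marker means were 13.73 and 13.66 against 15.30 and 15.23 in the other 2. The genotype difference was 0.84 (adjusted p = 0.671) with LPS and 0.21 without LPS when the 4 arrays were left out. Among WT +LPS arrays 1 to 4, Tnfrsf13c was 8.24, 9.89, 8.94 and 10.03, beside B cell marker means of 11.09, 13.59, 11.61 and 13.44 and antibody-secreting cell marker means of 15.43, 14.40, 15.49 and 14.60. The part of these markers in the result was not tested. Of its 10 rows 1 junction rose with LPS in ELL2 cko, JUC1500008644.mm.1, which had 11.16, 11.64 and 12.18 in ELL2 cko +LPS against 9.58, 10.12, 10.25 and 10.33 in ELL2 cko -LPS (1.59 ± 0.40, adjusted p = 0.0333). It was at 0.87 (adjusted p = 0.656) without the 4 arrays, and 2.95% of all rows were called higher. No row of Tnfrsf13c was called by limma with LPS in WT or between genotypes (at an unadjusted p under 0.05, 0 with LPS in WT, 1 between genotypes with LPS and 0 without), and by the splicing index the largest changes with LPS in WT were 0.81 and -0.65, with 0 of 10 called and 2 at an unadjusted p under 0.05. In order of level the groups ran ELL2 cko +LPS, WT +LPS, WT -LPS and ELL2 cko -LPS, and all neighbours overlapped.

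Downstream of the receptors, the non-canonical NF-kB genes were mostly lower with LPS in WT. Resting cells degrade the kinase NIK, encoded by Map3k14, through a TRAF and cIAP complex, and the BAFF receptor releases it. With LPS in WT 1 of 8 genes rose and 6 fell (median -1.19, against 0.03 over all genes, of which 10.6% fell). The largest falls were Birc3 (a cIAP, -2.09 ± 0.39), Map3k14 (-1.69 ± 0.24), Nfkb2 (the p100 precursor, -1.31 ± 0.32) and Traf3 (the brake on NIK, -1.28 ± 0.21), with limma adjusted p from 9.31e-05 to 0.0066. In ELL2 cko 1 rose and 1 fell, Birc2 (1.27 ± 0.20) and Map3k14 (-0.87 ± 0.25), with a median of -0.28 against 0.04 over all genes, of which 3.99% fell. Map3k14 changed by -0.99 in ELL2 cko without the 4 arrays (adjusted p = 0.287). By limma 0 of 8 were called between genotypes (at an unadjusted p under 0.05, 2 with LPS and 5 without). The median genotype difference was 0.42 with LPS and -0.52 without LPS, or 0.54 and -0.11 when the 4 arrays were left out. The difference of LPS responses was called for 0 of 8 as well, 5 at an unadjusted p under 0.05, and its median was 0.98 against 0.0 over all genes (1.37% called). Without the 4 arrays that median of the 8 genes was 0.72.

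In the canonical pathway 2 of 11 measured genes rose and 2 fell with LPS in ELL2 cko (6.36% and 3.99% of all genes), and 3 rose and 6 fell in WT (13.9% and 10.6% of all genes). Nfkbia, the NF-kB inhibitor that NF-kB itself induces, changed by 2.06 ± 0.28 in ELL2 cko and 2.33 ± 0.26 in WT. Tnfaip3, the feedback inhibitor A20, changed by 1.57 ± 0.32 and 1.93 ± 0.30 in the same order, Traf5 (an adaptor) by -2.03 ± 0.19 and -2.90 ± 0.18, and the kinase gene Ikbkb by -1.51 ± 0.34 and -2.15 ± 0.31, all called by limma in both. Ikbkb was at -1.30 in ELL2 cko without the 4 arrays (adjusted p = 0.0771). Between genotypes with LPS 1 gene was called, Nfkb1 (p105), higher in ELL2 cko by 1.36 ± 0.29 (adjusted p = 0.0147, with 1.37% of all genes higher), and by 1.12 (adjusted p = 0.418) without the 4 arrays. The median changes were -0.10 in ELL2 cko and -0.66 in WT.

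Of 12 measured genes of PI3K signalling and survival, 3 rose and 1 fell with LPS in ELL2 cko (6.36% and 3.99% of all genes), and 5 rose and 3 fell in WT (13.9% and 10.6%). Pim1, a survival kinase, changed by 2.00 ± 0.28 in ELL2 cko and 3.57 ± 0.26 in WT, and Bcl2l1, which encodes the survival factor Bcl-xL, by 1.44 ± 0.25 and 3.12 ± 0.23. Bcl2l11, which encodes the death factor Bim, rose as well, by 2.09 ± 0.46 and 3.47 ± 0.42. Pik3r1, the PI3K regulatory subunit gene, changed by -1.11 ± 0.24 in ELL2 cko, or -1.79 without the 4 arrays, and by -1.41 ± 0.22 in WT, both called, and the kinase gene Pim2 rose by 2.01 ± 0.42 in WT. Bcl2l11 was at 2.41 in ELL2 cko without the 4 arrays (adjusted p = 0.147). With LPS, ELL2 cko cells had lower Mcl1 (a survival factor needed by plasma cells, -1.84 ± 0.49), Pim1 (-1.54 ± 0.28) and Bcl2l1 (-1.03 ± 0.25), and higher Syk (a B cell receptor kinase, 1.32 ± 0.29), with limma adjusted p from 0.00619 to 0.0447. Over all genes 3.3% were called lower and 1.37% higher in that comparison. The LPS responses differed for Bcl2l1 (-1.68 ± 0.34, adjusted p = 0.0276) and Syk (1.73 ± 0.39, adjusted p = 0.0477), with -1.62 (adjusted p = 0.299) and 1.67 (adjusted p = 0.376) without the 4 arrays, in a comparison that called 1.37% of all genes. Without the 4 arrays none of the 12 was called between genotypes, with Mcl1 at -1.07, Pim1 at -1.33, Bcl2l1 at -1.29 and Syk at 1.43.

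**Figure D5:**
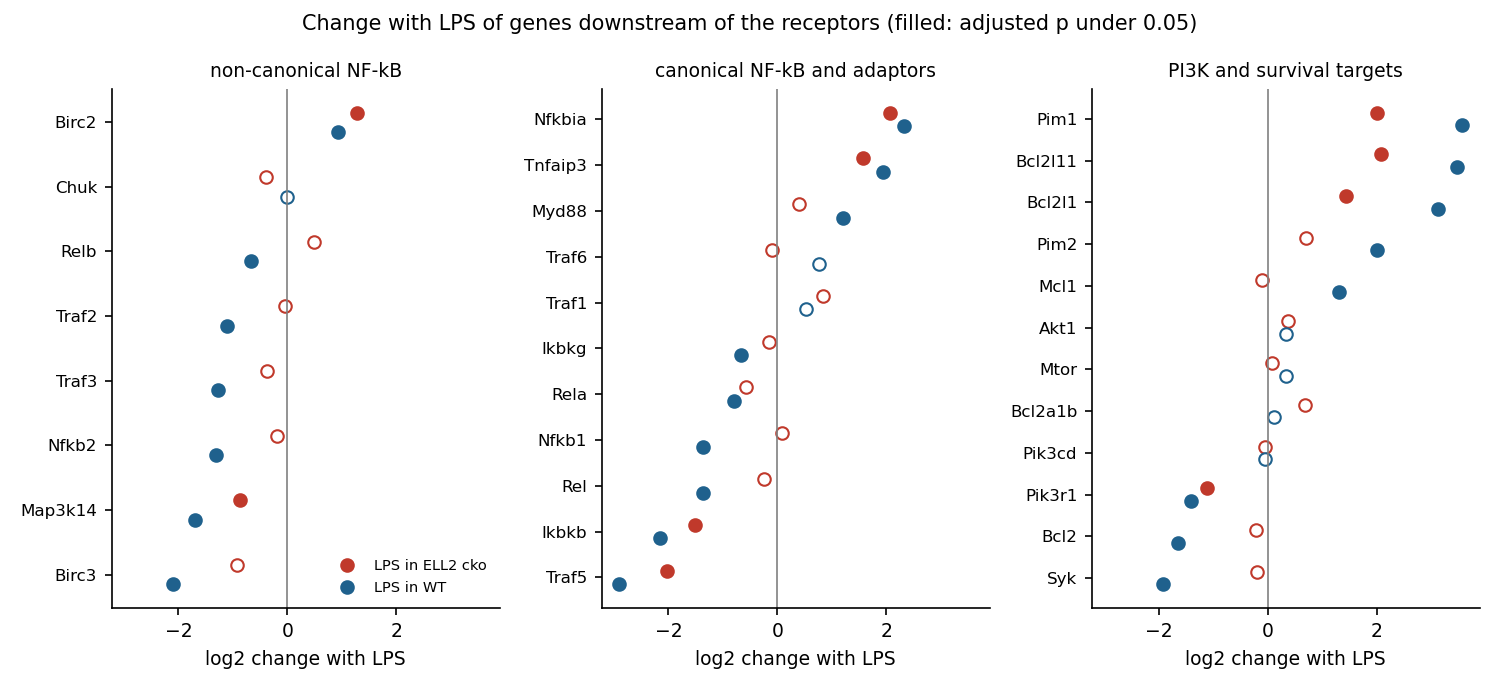
Change with LPS (log2) of the genes of 3 signalling lists in ELL2 cko and in WT, ordered by the change in WT within each list, with filled points for genes called. Birc3 (-2.09) and Traf5 (-2.90) fell and Nfkbia (2.33) and Pim1 (3.57) rose in WT.

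The receptors are shed by proteases, TACI by ADAM10 and BCMA by gamma-secretase. Of 6 measured protease genes limma called 0 with LPS in ELL2 cko, 2 at an unadjusted p under 0.05, and 2 rose and 1 fell in WT (13.9% and 10.6% of all genes). Without the 4 arrays Psen2 was called in ELL2 cko, at -1.29 (adjusted p = 0.0175) against -0.62 ± 0.22 (adjusted p = 0.0907) over all arrays. The gamma-secretase subunit genes Ncstn (0.85 ± 0.24) and Psenen (0.83 ± 0.22) rose in WT and Psen2 (-1.16 ± 0.20), of its catalytic subunit, fell, with limma adjusted p from 0.000555 to 0.0164. Between genotypes with LPS 1 of the 6 was called, Ncstn, lower in ELL2 cko (-1.30 ± 0.26, adjusted p = 0.00942 by limma). Without the 4 arrays, with 1 ELL2 cko +LPS array left, Ncstn was at -0.80 and no longer called. In that comparison 3.3% of all genes were called lower and 1.37% higher. Among 25 other receptors of the superfamily 1 rose and 1 fell with LPS in ELL2 cko, and 2 rose and 4 fell in WT, counts near the shares of all genes (6.36% and 3.99% in ELL2 cko, 13.9% and 10.6% in WT). Tnfrsf18 (GITR) changed by -0.99 ± 0.18 in ELL2 cko, or -0.82 (adjusted p = 0.17) without the 4 arrays, and by -0.83 ± 0.17 in WT, and Tnfrsf26 by -1.0 ± 0.27 in WT. Cd40, the receptor for T cell help, changed by -3.31 ± 0.67 in WT. Tnfrsf10b, the TRAIL receptor, changed by 1.91 ± 0.28 in ELL2 cko and 1.66 ± 0.26 in WT. Relt was the 1 gene of the 25 called between genotypes with LPS (1.24 ± 0.30, adjusted p = 0.0312 by limma), where 1.37% of all genes were called higher. Relt was at 1.02 and no longer called without the 4 arrays.

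The pattern of each receptor over the 15 arrays was set beside that of 6669 genes whose mean reached 8 in at least 1 group. These coefficients are descriptions, since the arrays share the LPS and genotype differences and the RNA of other cells. Tnfrsf13b was most like Tmem214 (Pearson r = 0.981), Traip (0.980) and Plpp5 (0.979). All 3 were called higher with LPS in both genotypes and lower in ELL2 cko +LPS than in WT +LPS. Like the genes named below, they were chosen by likeness over the same arrays, so calls shared with the receptor are no separate result. Traip reached a mean of 8 in WT +LPS only (8.01). Tnfrsf17 was most like H1f2 (a linker histone gene, 0.948), Grina (0.944) and Ctla4 (0.943). Ctla4, an inhibitory receptor of the CD28 family, ranged from 7.50 to 9.16 in ELL2 cko +LPS, 4.65 to 7.36 in ELL2 cko -LPS, 11.09 to 11.87 in WT +LPS and 4.47 to 4.88 in WT -LPS. Its LPS responses differed by -4.43 ± 0.76 over all 15 arrays (adjusted p = 0.0125, limma). These include the 4 ELL2 cko arrays with RNA of other cells, T cells among them. The Ctla4 difference without those arrays is not given here. Tnfrsf13c was most like Mtap (0.901), Eif4h (0.897) and the mitochondrial gene ND1 (0.893), none of which was called with LPS or between genotypes with LPS. Among the receptors, r was 0.804 for Tnfrsf13b and Tnfrsf17 (0.956 over the 11 arrays without RNA of other cells), 0.464 for Tnfrsf13b and Tnfrsf13c (0.236) and 0.167 for Tnfrsf13c and Tnfrsf17 (0.269).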

How the data were processed

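RNA of 15 samples of splenic B cells was measured on exon and junction arrays, 1 per sample. The deposited values are log2 intensities that the authors summarised by RMA with a signal space transformation in Expression Console (Affymetrix), per the labels' descriptions and the submitters' processing notes; the log2 scale follows from the values. Versions are not given in the sources used here, and no further normalization was applied. The values ran from 1.74 to 19.93. Differences near the top may be compressed, which was not tested. Of 725678 rows, 580167 have 1 gene symbol in the platform annotation, 18694 have several and 126817 none, and only the first were used. Symbols were updated through RefSeq (1493 changed). The receptors, gene lists and tests were chosen with earlier results of these data known.

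A gene value is the median over its exon regions (31350 genes). limma 3.58.1 in R 4.3.3 fitted a mean for each of the 4 groups to all 15 arrays and tested 5 contrasts (eBayes, two-sided, Benjamini-Hochberg over all genes), and the same to all rows and to the splicing index (571284 rows of genes with at least 3 rows). The number of arrays limits the precision. The labels say that cells were isolated from each mouse but tie no sample to a mouse, so p-values measure the spread between these samples. Same-numbered samples of different groups did not deviate together (r from -0.25 to 0.227), so the numbers were not used as pairs. The steps were tested on simulated data. Genes named from a list are the 4 with the largest called change per contrast. The genes most like a receptor exclude predicted genes, genes named only by a clone or accession, and immunoglobulin and T cell receptor variable segments. Alternatives were the mean of exon regions, junctions added, a filter on dim genes or rows, quantile normalization, median centring, trend and robust eBayes, only the groups compared, the replicate block and leaving out each array. Leaving out the 4 arrays with RNA of other cells (T cell marker mean over 1 log2 unit above that of WT -LPS) was chosen after seeing the data. Promoter windows are RefSeq's. Some listed genes were not analysed here.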

Additional observations from a re-analysis of the deposited data

Results flagged for a closer look

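Tnfrsf13b in WT +LPS 2, at 12.1, lay apart from the other 3 arrays of its group (12.84 to 12.91), with a gap of 0.917 of the group's range (above Dixon's critical value for 4 samples). Tnfrsf13b in WT -LPS 1, at 10.24, lay apart from 10.50 to 10.54 in the other 3 (ratio 0.862), and Ell2 in WT -LPS 2, at 10.87, from 11.07 to 11.10 (ratio 0.872). In all, 18 groups of 4 arrays were examined, and chance flags about 1 group in 20. The LPS response of the Tnfrsf17 junction JUC1600000479.mm.1 differed between genotypes by -2.95 (ELL2 cko minus WT, adjusted p = 0.0459 by limma over all rows). Both ELL2 cko groups and WT -LPS lay under the background level of 5.06, so that size is not interpretable.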

How the results depend on the processing

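The LPS changes of Tnfrsf13b (0.98 to 2.04 in ELL2 cko, 1.88 to 2.93 in WT) and of Tnfrsf17 in WT (1.14 to 1.48) stayed called under all 24 alternatives run. Tnfrsf13b with LPS (ELL2 cko minus WT, -1.33) was -1.33 (adjusted p = 0.0574) with only the groups compared and -0.91 without the 4 arrays with RNA of other cells. Tnfrsf17 with LPS (-0.65) was -0.95 by the mean of exon regions and -1.41 with junctions added. Among values that were not called, the sign turned for Tnfrsf13c with LPS when junctions were added (-0.15), for Tnfrsf17 without LPS when junctions were added (-0.01), and, without the 4 arrays, for Tnfrsf13b (0.0), Tnfrsf13c (0.21) and Tnfrsf17 (-0.21) without LPS. Without the 4 arrays Tnfrsf17 changed by 1.18 with LPS in ELL2 cko. Of all genes, 3244 were called with LPS in ELL2 cko, 2159 with only the groups compared and 1306 without the 4 arrays. Between genotypes with LPS the count was 1462, against 444 and 35 under the same alternatives. Without LPS it was 4, against 8 with further quantile normalization and 0 with a filter on dim genes, median centring, trend and robust eBayes, only the groups compared, the replicate block or the 4 arrays left out. For the difference of LPS responses it was 430, and 0 without the 4 arrays. Receptor rows called, 18 with LPS in ELL2 cko, 11 between genotypes with LPS and 1 in the difference, came to 10, 0 and 0 without the 4 arrays, and by the splicing index 9 in ELL2 cko and 1 between genotypes with LPS came to 0 and 0. With fewer arrays these alternatives also have less power.

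Leaving out each array in turn gave -1.55 to -1.12 for Tnfrsf13b with LPS (the call was lost without ELL2 cko +LPS 2) and -1.26 to -0.83 for its difference of LPS responses (called at -1.24 without WT +LPS 2). It gave -0.06 to 0.54 for Tnfrsf13c with LPS (-0.06 without WT +LPS 1), -0.87 to -0.54 for Tnfrsf17 with LPS (-0.87 and called without ELL2 cko +LPS 1) and -0.02 to 0.34 for Tnfrsf17 without LPS (-0.02 without ELL2 cko -LPS 2). Genes called ran from 1930 to 3412 with LPS in ELL2 cko, 556 to 2164 between genotypes with LPS, 0 to 29 without LPS and 109 to 1072 in the difference. Receptor rows called ran from 2 to 14 between genotypes with LPS and 0 to 5 in the difference, and by the splicing index from 4 to 8 in ELL2 cko and 0 to 6 between genotypes with LPS. The cause of these shifts was not tested. Same-numbered samples did not deviate together, and the replicate block gave -1.26 (adjusted p = 0.00619) for Tnfrsf13b with LPS, 0 rows in the difference of LPS responses, and no other changed call among the receptors.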
